A study of Mus musculus with 6 samples.

Results

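The comparison described here set lung cells of Ccr2KO mice beside those of WT mice 40 days after both had received silica by aspiration. WT mice were C57BL/6J, and Ccr2KO mice were B6.129S4-Ccr2tm1Ifc/J, which carry a disrupted gene for the chemokine receptor CCR2. The animals were 7 to 9 weeks old when the experiment began. Lungs were perfused and digested, erythrocytes and silica were taken out on a Percoll gradient, and the cells left after magnetic removal of CD45-bearing leukocytes were used. The study hybridised 6 one-colour arrays, from untreated mice (day 0) and from mice at day 28 and day 40 in both genotypes, and 2 of these 6 arrays make up the day 40 pair. Each array held 1 RNA pooled from 3 biological replicates. A difference within the pair therefore has no replicate check, and no p-value is given.

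CCR2 is the receptor through which Ly6C-high monocytes leave the bone marrow and enter inflamed tissue. Its ligands in the mouse include the chemokines CCL2, CCL7 and CCL12. Inhaled crystalline silica is taken up by macrophages that it then damages, and the lung answers with lasting inflammation, granulomas and collagen deposition by activated fibroblasts. Lung cells without CD45 comprise epithelium, endothelium, fibroblasts, smooth muscle and mesothelium.

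A level below is the log2 processed intensity of a gene's brightest probe minus the 75th percentile of its array, and a difference is the Ccr2KO level minus the WT level on the log2 scale. Of the genes on the array, 16159 were well above background on at least 1 array of the pair, and 15169 of them on both. The levels of the pair correlated across genes with a Pearson r of 0.974 and a Spearman rho of 0.989 (genes are not independent replicates). The median difference was 0.04, with a 5th percentile of −0.53 and a 95th of 0.78. A gene is counted as higher or lower from a 2-fold difference. By that rule 514 genes were higher in Ccr2KO cells (3.18% of those measured) and 212 were lower (1.31%), together 4.49%, so that 70.8% of the counted genes were higher. With quantile normalization the counts were 425 and 280, with 60.3% higher. They were 193 and 79 after normexp background correction, 218 and 114 in the authors' deposited table, and 281 and 118 among genes well above background on both arrays.

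Technical error can be read in 2 ways. Probes printed 10 times on each array had a median SD within the array of 0.05 in WT (308 probes) and 0.07 in Ccr2KO cells (307 probes), with 95th percentiles of 0.21 and 0.25. The scanner software's own spot error, carried to the difference, had a median of 0.20 and follows the sign ± below. Neither covers the spread between mice or between RNA preparations. The difference was larger than 2 such spot errors in 394 of the 514 higher genes and in 168 of the 212 lower genes. Among genes well above background on both arrays the spot error had 5th and 95th percentiles of 0.20 and 0.30. A 2-fold difference passes 2 errors of that size almost by rule, so these counts add little to the 2-fold rule.

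**Figure D1:**
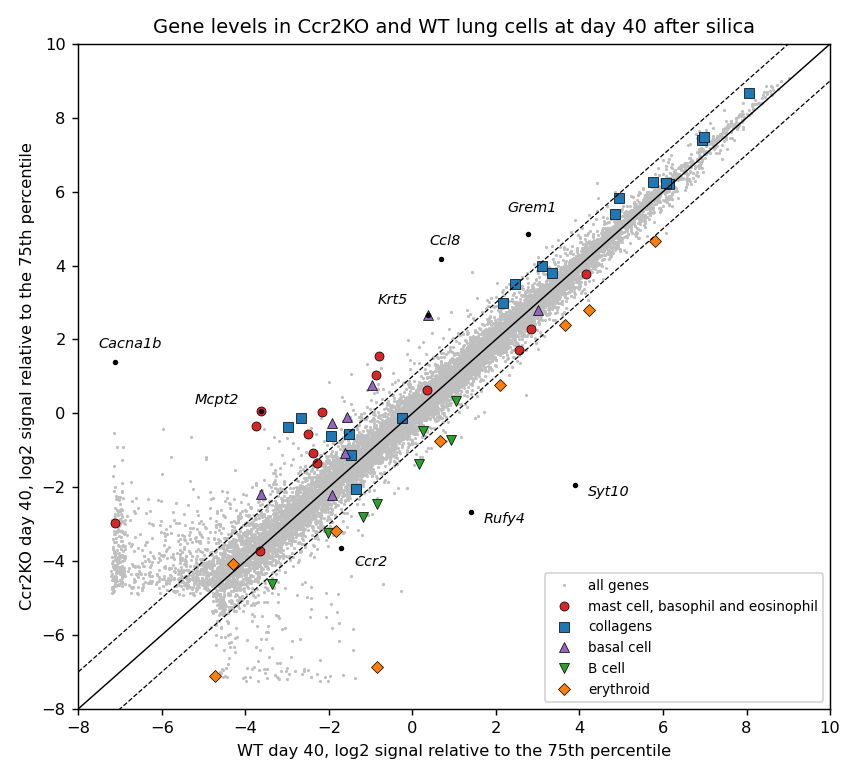
Level of each of 16159 genes in WT cells (x axis) and Ccr2KO cells (y axis) at day 40, both as log2 signal relative to the array's 75th percentile, with 5 gene lists coloured and dashed lines at 2-fold. Mast cell, basophil and eosinophil genes were past the upper line in 8 of 14 cases, B cell genes past the lower line in 6 of 8 and erythroid genes in 7 of 9.

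The targeted gene was read first. Ccr2 stood at −1.70 in WT and −3.64 in Ccr2KO cells at day 40, a difference of −1.94 ± 0.25, or 3.85-fold lower. Its signal was still well above background in Ccr2KO cells, and the position of the probe within the gene was not analysed here. The untreated pair differed by −5.16 and the day 28 pair by −2.89, so the day 40 pair had the smallest of the 3 differences. Ccr2 was itself at its lowest of the 3 WT arrays at day 40. Ptprc, which encodes CD45, differed by −0.90 ± 0.20 (0.29 in WT, −0.61 in Ccr2KO). Mean levels of 12 pan-leukocyte genes were 1.31 and 0.81, with 11 of 12 lower in Ccr2KO cells, a median difference of −0.54 and none past 2-fold. Leukocyte RNA was thus measurable in both CD45-depleted preparations. In pooled RNA, fewer cells of a type and less RNA per cell cannot be told apart.

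Genes of monocytes read lower in Ccr2KO cells. Of 12 measured monocyte genes 10 had a negative difference (median −0.38), and F13a1 and Treml4 were past 2-fold. The pan-leukocyte median of −0.54 was lower still. The monocyte list median was −1.11 in the untreated and −0.52 in the day 28 pair, with 7 and 5 genes lower by 2-fold, so it was smallest in size at day 40. F13a1, which encodes the coagulation factor XIII A subunit and is abundant in classical monocytes, read −0.33 in WT and −2.02 in Ccr2KO cells (−1.68 ± 0.21). Treml4, a receptor of non-classical monocytes, differed by −1.14 ± 0.24. Csf1r, the receptor for macrophage colony-stimulating factor, differed by −0.40, and Vcan, a proteoglycan gene that fibroblasts also express, by 0.54. Of 10 dendritic cell genes only Cd209a, a C-type lectin of monocyte-derived dendritic cells, was past 2-fold (−1.28 ± 0.28). Adgre4, an adhesion receptor of mouse monocytes and macrophages, read −1.66 in WT and −3.23 in Ccr2KO cells. Cybb, the catalytic subunit of the phagocyte NADPH oxidase, differed by −1.05 ± 0.24. After normexp correction Treml4 was at −0.75, Cd209a at −0.57 and Cybb at −0.59, all under 2-fold.

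Genes of CCR2 ligands, and the chemokine gene Ccl8, read higher in the mice without the receptor. Ccl8 stood at 0.70 in WT and 4.17 in Ccr2KO cells at day 40, a difference of 3.47 ± 0.20 or 11.1-fold. Among higher genes named here and well above background on both arrays, its difference was the second largest. The earlier WT arrays read −1.76 (untreated) and 0.85 (day 28), and those of Ccr2KO mice −1.16 and 2.76, so Ccl8 was highest in Ccr2KO cells at day 40. Ccl2 stood at 4.44 in WT and 5.83 in Ccr2KO cells (1.38 ± 0.20), and Ccl7 at 3.49 and 4.68 (1.19 ± 0.20). Ccl12 differed by 0.56 ± 0.24. These 4 genes had a positive difference in the untreated and day 28 pairs as well, with Ccl2 at 1.80 and 0.82 and Ccl7 at 2.20 and 0.67. Of the 13 genes on the list of CCR2 ligands and other monocyte chemokines 3 were higher and none lower (median 0.10). Ccl3, Ccl4 and Ccl5, chemokines for monocytes and T cells, lay between −0.03 and 0.10. Saa3, a serum amyloid of inflamed stroma, differed by 0.75 and Cxcl9, an interferon-induced chemokine for T cells, by 1.59 ± 0.20.

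Mast cell, basophil and eosinophil genes had the highest list median, 1.61, with 8 of 14 higher and none lower. Mcpt2, a chymase of mucosal mast cells, read −3.62 in WT and 0.05 in Ccr2KO cells at day 40 (3.67 ± 0.25, or 12.7-fold), the largest among higher genes named here and measured on both arrays. Mcpt1, its close relative, read −3.75 and −0.35 (3.41 ± 0.25), and the pseudogene Mcpt-ps1 −3.46 and −0.93. Mcpt4 and Cma1, chymases of connective tissue mast cells, differed by 2.35 ± 0.21 and 1.95 ± 0.22, and Cpa3, mast cell carboxypeptidase, by 1.90 ± 0.20. Tph1, which mast cells use to make serotonin, differed by 2.46 ± 0.35. The eosinophil granule genes Prg2 and Epx differed by 2.20 ± 0.21 and by at least 1.90, since Epx was not well above background in WT cells. Fcer1a, the IgE-binding chain of the mast cell and basophil receptor, differed by 1.31 ± 0.21 and Mcpt8, a basophil protease, by 0.95.

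Not every marker on the mast cell list followed the proteases. Kit, the receptor for stem cell factor, read 2.84 in WT and 2.29 in Ccr2KO cells (−0.54). Gata2 differed by −0.83, Hdc, the enzyme that makes histamine, by −0.36, and the tryptase Tpsb2 by 0.28. Kit and Gata2 are also expressed by lung endothelium. The chymases are close relatives in sequence, and reading of one gene's RNA by the probe of another was not tested. These cells carry CD45, and their genes read higher while the pan-leukocyte genes read lower; the part of incomplete CD45 depletion in the difference was not tested. The day 28 pair gave like differences, 2.17 for Mcpt2, 2.43 for Mcpt1 and 2.42 for Mcpt4, with a list median of 1.97. The untreated pair did not for these proteases, with Mcpt4 at −1.03 and Mcpt1 not well above background on either array. Its list median was −0.28, with 4 of 12 measured genes past 2-fold lower and 1 higher. That 1 gene was the eosinophil gene Prg2, which differed by 3.73 (a bound) in untreated cells and by 2.18 at day 28. With the authors' deposited table, which held fewer of these genes, the day 40 list median was 0.59.

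Mcpt1 and Mcpt4, which differed in the same direction at both silica times, have closely similar stretches before their starts, shown here to set the shared sequence beside the expression values. The sequences are from RefSeq on GRCm38.p6 and run from 250 bases before the start of transcription to 50 after it. Mcpt1 is at chr14:56017714-56018013 on the plus strand and Mcpt4 at chr14:56062261-56062560 on the minus strand. Capitals mark a GATA motif, searched as AGATAA or TGATAA on both strands.
Mcpt1: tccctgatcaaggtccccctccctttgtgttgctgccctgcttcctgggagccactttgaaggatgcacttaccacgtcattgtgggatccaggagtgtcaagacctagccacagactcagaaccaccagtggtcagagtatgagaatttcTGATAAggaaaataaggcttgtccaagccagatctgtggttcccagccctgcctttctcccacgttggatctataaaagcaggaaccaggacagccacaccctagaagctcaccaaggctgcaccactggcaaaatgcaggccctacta
Mcpt4: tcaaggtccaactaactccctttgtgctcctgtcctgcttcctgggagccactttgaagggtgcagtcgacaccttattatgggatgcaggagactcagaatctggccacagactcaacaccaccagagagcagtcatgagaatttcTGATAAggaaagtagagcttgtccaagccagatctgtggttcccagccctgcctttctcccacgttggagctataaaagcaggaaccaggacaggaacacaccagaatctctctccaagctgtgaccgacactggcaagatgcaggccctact
Aligned, the 2 stretches shared 254 of 300 bases (84.7%). Each held 1 match, which began at position −99 from the start in Mcpt1 and −103 in Mcpt4. Of the other mast cell genes searched, Cpa3 held 1 match at −46 and Cma1 held none. Of 32851 promoters of this length 18.6% held such a match. The search letters were chosen after the sequences had been read, and a match is a description of the letters and not a shown binding site.

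**Figure D2:**
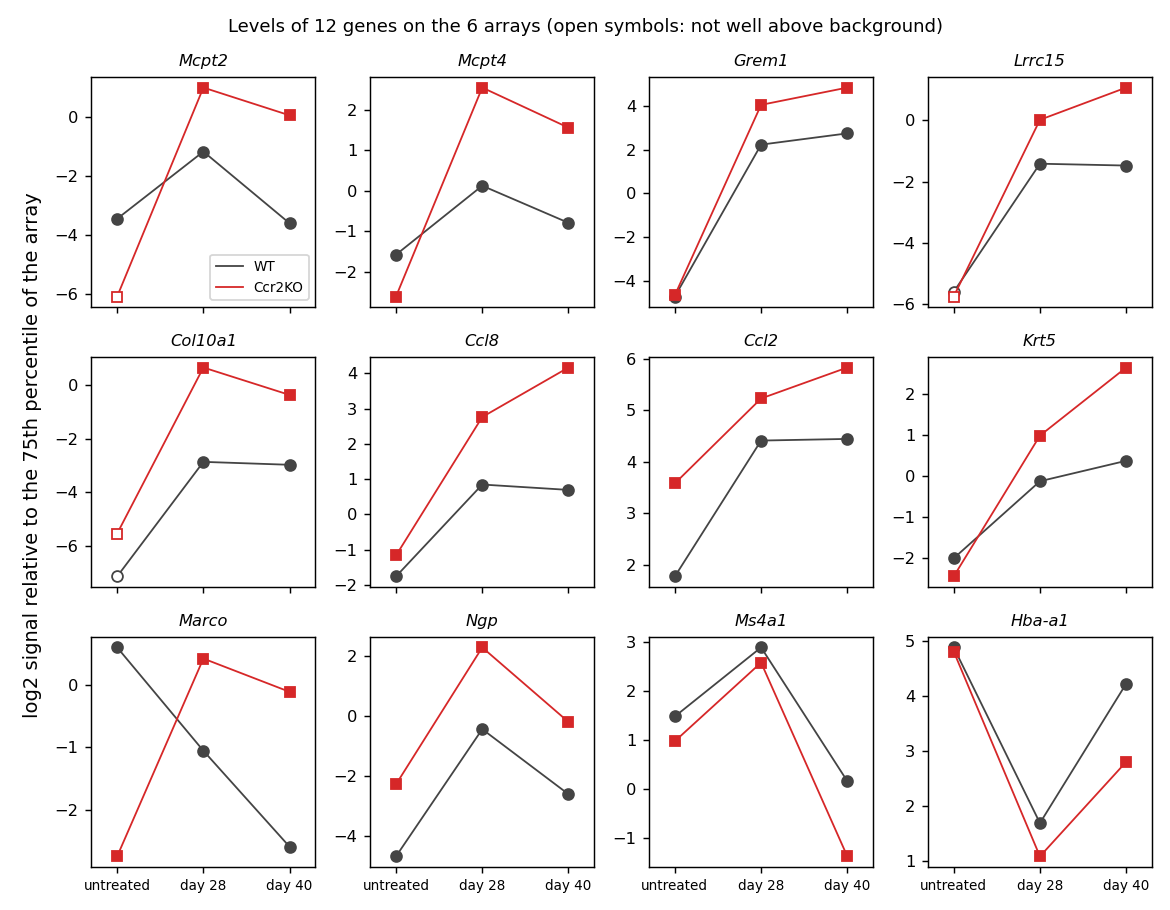
Levels of 12 genes on the 6 arrays, as log2 signal relative to the array's 75th percentile, for WT and Ccr2KO cells untreated and at day 28 and day 40; open points were not well above background and each point is 1 pooled RNA. Mcpt2 stood at −3.62 in WT and 0.05 in Ccr2KO cells at day 40, and Ms4a1 at 0.16 and −1.37.

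Of 18 neutrophil genes 7 were higher in Ccr2KO cells and none lower (median 0.46). Ngp, neutrophilic granule protein, read −2.61 in WT and −0.19 in Ccr2KO cells (2.42 ± 0.22). Camp, the cathelicidin peptide, differed by 1.98 ± 0.20, with 1.99 on a second probe, and Mpo, myeloperoxidase, by 1.70 ± 0.21. The 4 stefins, inhibitors of cysteine proteases in mouse neutrophils, were also past 2-fold, from 1.03 (Stfa2l1) to 1.97 (Stfa1). The calprotectin genes S100a8 and S100a9 differed by 0.75 and 0.58. Csf3r, Cxcr2 and Mmp9, which mature neutrophils carry, lay at −0.11, 0.32 and −0.37, and Elane, another granule protease, at −0.86. Ngp had differences of 2.41 in the untreated and 2.73 in the day 28 pair, and Stfa1 of 4.11 and 2.60.

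Macrophage genes read higher in Ccr2KO cells at day 40, while pan-leukocyte genes read lower. Of 13 alveolar macrophage genes 5 were higher and none lower (median 0.78). Marco, a scavenger receptor for particles, read −2.60 in WT and −0.11 in Ccr2KO cells (2.48 ± 0.22), and Chil3, a chitinase-like protein, 1.42 and 3.82 (2.40 ± 0.20). Ctsk, cathepsin K, which fibroblasts and osteoclasts also make, differed by 1.81 ± 0.20. Atp6v0d2, a subunit of the proton pump, differed by 1.75 ± 0.23, but its second probe gave −0.38, and with the mean of its probes the value was 0.69. Of 12 genes of monocyte-derived and interstitial macrophages 4 were higher and none lower (median 0.82). Gpnmb, a glycoprotein of lipid-laden macrophages, read 2.03 and 3.52 (1.48 ± 0.20). Trem2, a lipid receptor, differed by 1.18 ± 0.21 and C1qc, a chain of complement C1q, by 1.09 ± 0.21. Adgre1, a macrophage adhesion receptor, and Mertk, a receptor for dying cells, differed by −0.27 and −0.69. With normexp correction Trem2 was at 0.95 and C1qc at 0.92. In the untreated pair Marco and Chil3 differed the other way, by −3.35 and −2.04, and the alveolar macrophage list had a median of −2.04. In the day 28 pair the alveolar list had a median of 0.06 with 2 genes higher, and Marco differed by 1.48 and Chil3 by 0.12. The monocyte-derived and interstitial list had a median of −0.27 there with 0 higher, and Trem2 and C1qc differed by −0.27 and −0.14.

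Genes of B cells and red cells read lower in Ccr2KO cells. Of 8 B cell genes 6 were lower and none higher, with a median of −1.39, and the mean level was −0.63 in WT and −1.92 in Ccr2KO cells. Ms4a1, which encodes CD20, read 0.16 and −1.37 (−1.53 ± 0.21). Fcmr, the IgM Fc receptor, and Cr2, a complement receptor, differed by −1.65 and −1.62. The list median was −0.38 in the untreated and −0.28 in the day 28 pair, and −0.97 at day 40 after normexp correction. T and NK cell genes had a median of −0.17 with 0 of 18 past 2-fold, and plasma cell genes −0.09 with 0 of 7. Of 9 erythroid genes 7 were lower and none higher (median −1.33). Hba-a1, an alpha globin, read 4.23 and 2.80 (−1.42 ± 0.20), and the beta globin Hbb-bs 0.67 and −0.75. Alas2, the first enzyme of haem synthesis in red cells, differed by −1.35 ± 0.23. Globin signal also varied within a genotype, since Hba-a1 stood at 4.89 and 1.69 in WT cells untreated and at day 28. Platelet genes had a median of −0.53, with Ppbp (−1.13) and Gp9, at the limit, past 2-fold. After normexp correction Alas2 was at −0.77, Ppbp at −0.94 and Gp9 at −0.67. The part of residual blood cells in any of these differences was not tested.

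**Figure D3:**
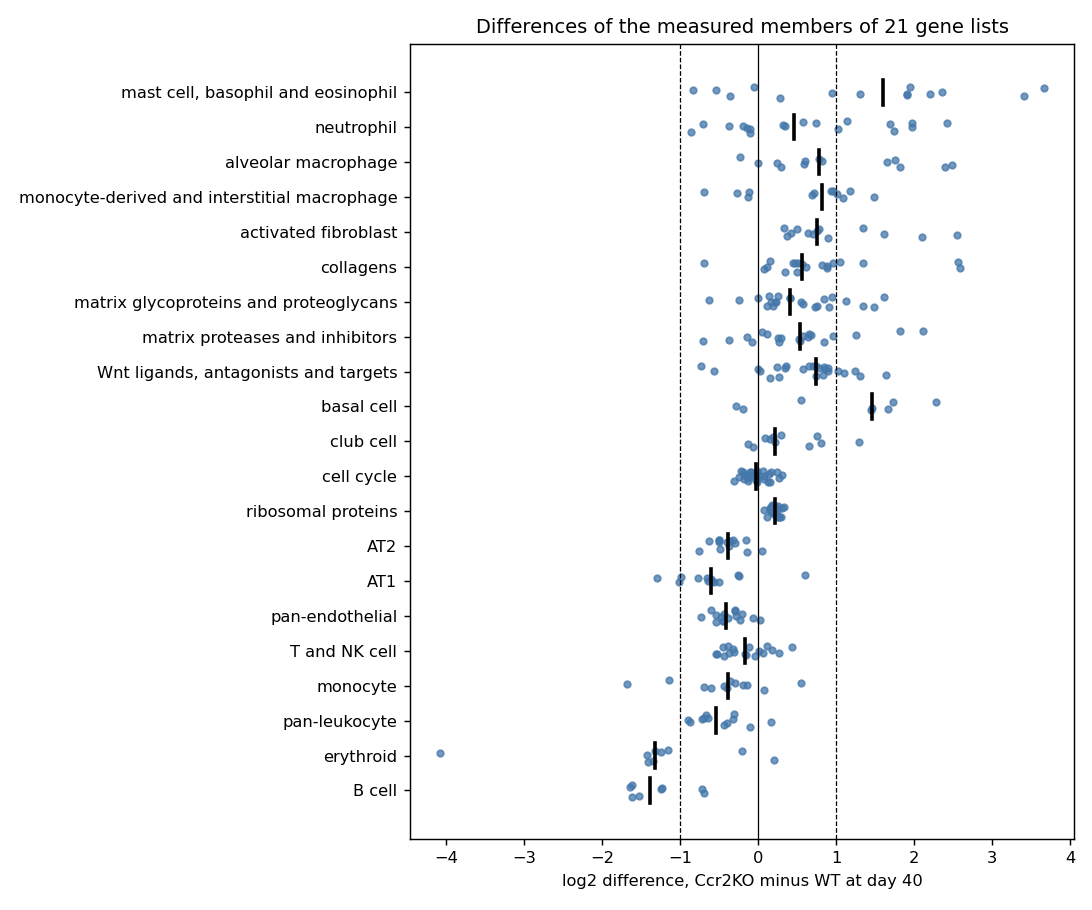
Ccr2KO minus WT difference at day 40 (log2, x axis) for the measured members of 21 gene lists; each point is a gene, the bar is the list median and dashed lines mark 2-fold. The medians ran from 1.61 for mast cell, basophil and eosinophil genes and 1.45 for basal cell genes to −1.33 for erythroid and −1.39 for B cell genes, against 0.04 for all genes.

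Genes of activated fibroblasts read higher in Ccr2KO cells, with all 13 measured members above 0, a median of 0.75 and 4 past 2-fold. Lrrc15, a membrane protein of matrix-producing myofibroblasts, read −1.47 in WT and 1.07 in Ccr2KO cells (2.54 ± 0.21). Grem1, a secreted antagonist of bone morphogenetic proteins, read 2.76 and 4.86 (2.10 ± 0.20, or 4.30-fold). Tnc, tenascin C, differed by 1.62 ± 0.21, with 0.63 on a second probe, and Postn, periostin, by 1.34 ± 0.20. Cthrc1, which marks collagen-producing fibroblasts after lung injury, differed by 0.70 and Fap by 0.42. In the day 28 pair Lrrc15 and Grem1 differed by 1.43 and 1.83. Neither differed in that way before silica, since Grem1 differed by 0.06 in the untreated pair and Lrrc15 was not well above background there.

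Of 19 collagen genes 18 were above 0, with a median of 0.56, and 4 were past 2-fold. Col10a1 and Col11a1, a network and a fibrillar collagen best known from cartilage, stood at −2.97 and −2.68 in WT, against −0.38 and −0.12 in Ccr2KO cells (2.59 ± 0.22 and 2.56 ± 0.21). Both were not well above background on either untreated array and differed by 3.50 and 2.48 at day 28. The abundant interstitial collagens stood much closer together, with Col1a1 at 6.92 and 7.39 (0.47), Col3a1 at 6.97 and 7.48 (0.51) and Col1a2 at 8.05 and 8.67 (0.62). Col24a1 (1.34) and Col5a3 (1.05) were the other members past 2-fold, and Col5a3 was just under 2-fold with quantile normalization. Of 23 matrix glycoproteins and proteoglycans 4 were higher and none lower (median 0.40), among them Thbs2, thrombospondin 2 (1.49 ± 0.20), and Lum, lumican (1.13 ± 0.20). Fn1, fibronectin, differed by 0.40 and Spp1, osteopontin, by 0.95. Of 18 enzymes that modify or crosslink collagen only Loxl2, a lysyl oxidase, was past 2-fold (1.18 ± 0.20). Timp1, an inhibitor of metalloproteinases, differed by 0.66 and Acta2, smooth muscle actin, by 0.74.

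Of 20 matrix proteases and inhibitors 3 were higher and none lower (median 0.53). Mmp13, the main interstitial collagenase of mice, read −1.68 in WT and 0.44 in Ccr2KO cells (2.11 ± 0.21), and Mmp8, a collagenase made by neutrophils, −0.07 and 1.19 (1.26 ± 0.20). The gelatinase Mmp2 and its activator Mmp14 differed by 0.96 and 0.85. The sequences before the starts of Lrrc15 and Mmp13, genes of matrix-producing cells with like differences, are shown because each holds an AP-1 motif close to its start. They are from RefSeq on GRCm38.p6, with Lrrc15 at chr16:30283205-30283504 on the minus strand and Mmp13 at chr9:7272264-7272563 on the plus strand. Capitals mark the motif, searched as TGACTCA or TGAGTCA on both strands.
Lrrc15: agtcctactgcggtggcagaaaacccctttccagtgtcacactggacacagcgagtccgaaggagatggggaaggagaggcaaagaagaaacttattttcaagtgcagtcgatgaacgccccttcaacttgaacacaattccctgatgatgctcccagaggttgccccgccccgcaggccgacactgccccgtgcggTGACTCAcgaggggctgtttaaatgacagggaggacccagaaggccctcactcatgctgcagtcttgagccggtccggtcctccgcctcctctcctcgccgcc
Mmp13: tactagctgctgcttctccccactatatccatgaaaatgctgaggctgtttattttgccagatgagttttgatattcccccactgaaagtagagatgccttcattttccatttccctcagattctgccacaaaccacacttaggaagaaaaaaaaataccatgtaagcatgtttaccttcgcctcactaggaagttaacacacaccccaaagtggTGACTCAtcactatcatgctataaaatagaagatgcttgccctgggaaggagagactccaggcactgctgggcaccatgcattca
The match began at position −53 from the start in Lrrc15 and −35 in Mmp13. Of the 32851 promoters 5.20% held one, and those of Grem1, Col10a1 and Col11a1 did not hold these letters in the same window. These letters, too, were chosen after the sequences had been read.

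Wnt genes, whose products pass between fibroblasts and epithelium, also read higher. Of 25 Wnt ligands, antagonists and targets 22 were above 0 (median 0.75), with 5 past 2-fold and none lower. Wnt10a, a ligand, read 0.15 in WT and 1.79 in Ccr2KO cells (1.64 ± 0.20), Rspo3, which strengthens Wnt signals, −0.35 and 0.89 (1.24 ± 0.20), and Sfrp2, a secreted Wnt binder, 1.08 and 2.18. Wnt10b differed by 1.30 ± 0.32 but by 0.54 after normexp correction. Wnt7a, a ligand made by alveolar epithelium, lay at −0.74. The list median was 0.24 in the untreated and 0.37 in the day 28 pair. Among 18 BMP ligands and antagonists Grem1 and Bmp7 (1.28 ± 0.20) were higher and none was lower, and Id1, Id2 and Id3, targets of BMP signals, lay between −0.11 and 0.10. TGF-beta ligands and targets had a median of 0.23 with 0 of 16 past 2-fold.

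Resident fibroblast genes did not follow the activated ones. Of 11 alveolar fibroblast genes 2 were lower and none higher (median −0.29). Slc7a10, an amino acid transporter of lipid-bearing fibroblasts, read −1.31 and −4.01 (−2.70 ± 0.27), and Inmt, an N-methyltransferase, 6.07 and 4.88 (−1.19 ± 0.20). Pdgfra, the receptor common to lung fibroblasts, differed by 0.37. Adventitial fibroblast genes had a median of 0.25 with 0 of 12 past 2-fold. Smooth muscle genes had a median of 0.20, with Actg2 past 2-fold (1.06, and 0.99 with quantile normalization), and pericyte genes 0.13 with 0 of 11.

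In the epithelium, keratins of basal cells stood apart. Of 8 basal cell genes 5 were higher and none lower, with a median of 1.45. Krt5 read 0.37 in WT and 2.65 in Ccr2KO cells (2.28 ± 0.20, or 4.87-fold), with 2.40 on a second probe. Krt14 and Krt17, keratins that join it in stratified epithelium, differed by 1.73 ± 0.20 and 1.46 ± 0.21. Dapl1 and Col17a1, a hemidesmosome collagen, differed by 1.66 and 1.45. The basal cell transcription factor Trp63 did not share the difference (3.01 in WT and 2.81 in Ccr2KO cells), and Krt15 lay at −0.28. The list median was −0.28 in the untreated and 0.16 in the day 28 pair, where Krt5 differed by 1.12. Of 15 genes of transitional alveolar epithelium 3 were higher, Lgals3 (1.15), Cldn4 (1.13) and Anxa8 (1.11), while the keratin Krt8 lay at −0.01. Cldn4 was at 0.61 after normexp correction, 0.96 with the mean of its probes and 0.80 with the probe that is brightest over 6 arrays.

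Genes of the gas exchange surface read slightly lower in Ccr2KO cells. Of 13 type 1 alveolar cell genes 12 were below 0 (median −0.60), with Spock2, a proteoglycan (−1.29 ± 0.20), and Col4a3, a basement membrane collagen (−1.01 ± 0.21, and −0.73 after normexp correction), past 2-fold. Ager, the receptor RAGE, differed by −0.56. Of 14 type 2 cell genes 13 were below 0 (median −0.38) and none was past 2-fold, and Sftpc, the surfactant protein that defines these cells, read 9.02 and 9.07. Of 16 pan-endothelial genes 15 were below 0 (median −0.41) and none was past 2-fold, with Pecam1 at 3.54 and 3.00. Among 12 alveolar capillary genes (median −0.47) only Hpgd, which degrades prostaglandins, was past 2-fold, at −1.13 on each of its 2 probes. Airway cells stood closer to 0, with medians of 0.22 for club, 0.08 for ciliated and −0.08 for mucous cells, and Scgb1a1, the club cell secretoglobin, read 8.57 and 8.72. Of 20 complement genes 16 were above 0 (median 0.33), with 2 higher and 2 lower. Cfd, complement factor D and an adipocyte product, read −1.09 and 1.34 (2.44 ± 0.21), and C1qc was the other higher gene. C7 (−1.70 ± 0.22) and C6 (−1.09), parts of the membrane attack complex, were lower.

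Several programmes differed little between the genotypes at day 40. Of 29 cell cycle genes none was past 2-fold, and they lay between −0.30 and 0.31. None was past 2-fold either among 20 type I interferon response genes (median −0.07), 22 immediate early genes (−0.05), 11 heat shock genes (−0.11), 16 NRF2 targets and metallothioneins (0.19) and 12 MHC class I genes (0.06). MHC class II genes, which B cells and dendritic cells carry, had a median of −0.35 with 0 of 10 past 2-fold. The 24 ribosomal protein genes lay between 0.08 and 0.33. Of 17 p53 and senescence genes only Cdkn2a, which encodes p16 and p19ARF, was past 2-fold, at −0.10 in WT and 1.97 in Ccr2KO cells (2.07 ± 0.20, with 1.81 on a second probe), while Cdkn1a differed by −0.36.

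The 2 other genotype pairs share no array with the day 40 pair and show how far its differences recur. Of the 374 higher genes also measured at day 28, 290 had the same sign there, 76 were past 2-fold in the same direction and 15 in the opposite one, where the day 28 pair had 1.14% of all genes higher and 1.47% lower (together 2.61%). Of the 328 measured in untreated cells 175 had the same sign, 32 were past 2-fold in the same direction and 26 in the opposite one, where that pair had 1.70% of all genes higher and 2.60% lower (together 4.30%). For lower genes the day 28 pair gave the same sign in 103 of 151, with 28 past 2-fold in the same direction and 13 in the opposite one. The untreated pair gave the same sign in 102 of 151, with 28 past 2-fold in the same direction and 4 in the opposite one. The share of all genes with the same sign in a single other pair is not given here, so the same-sign counts have no background of that kind. Of the 452 genes past 2-fold at day 40 and measured in all 3 pairs, 215 (47.6%) had 1 sign throughout, against 33.3% of all 15490 genes measured in all 3. Over those genes the day 40 differences correlated with those at day 28 with r = 0.320 (rho = 0.283) and with those of untreated cells with r = 0.150 (rho = 0.190). All 6 arrays lay on 1 slide, and these correlations are across genes, which share it.

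Genes past 2-fold in all 3 pairs were few. Higher in each were 17 genes (0.110% of those measured in all 3), among them Ngp, Mpo, Ctsg, Camp, 4 stefins, Prg2, Cxcl9, Cdkn2a and Adamdec1, a protease of gut macrophages, which read 0.61 in WT and 2.59 in Ccr2KO cells at day 40. Cck, the peptide cholecystokinin, read −2.42 and −0.40. Lower in each were 13 genes (0.0839%), among them Ccr2 and the myeloid genes F13a1, Adgre4, Cd209a, Cybb, Clec4a1 and Klra2. The alleles next to a targeted gene can differ between such strains, and the 20 measured genes nearest Ccr2 had a median of −0.06, with none past 2-fold.

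**Figure D4:**
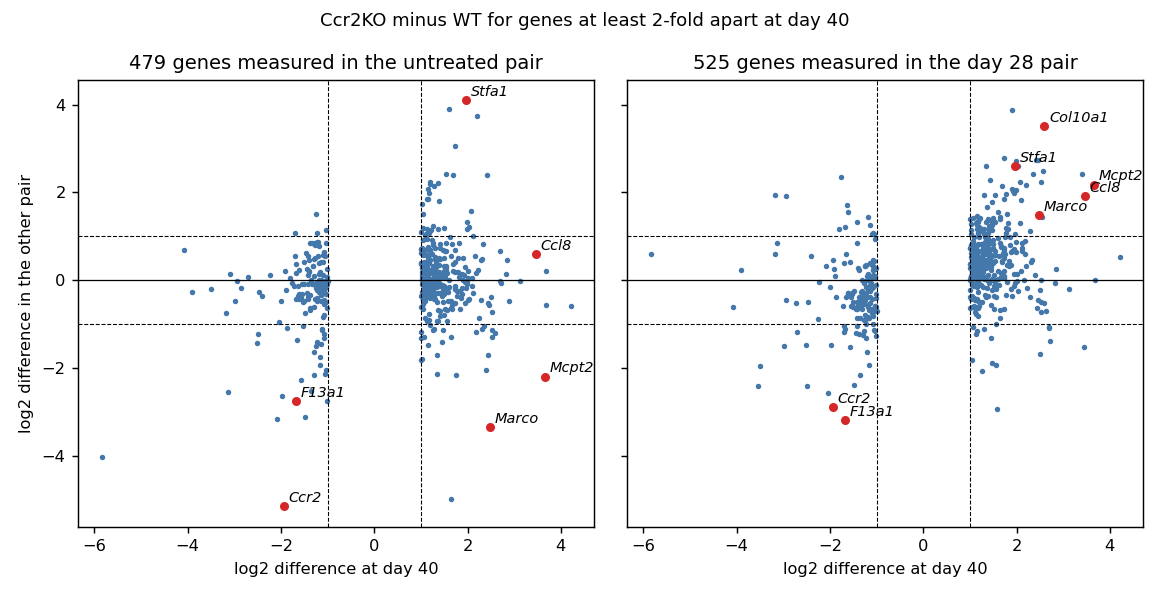
Day 40 difference (log2, x axis) of genes past 2-fold then, against that in the untreated (479 genes) and day 28 (525 genes) pairs. Each point is a gene, dashed lines mark 2-fold and the solid horizontal line marks 0. Mcpt2 stood at 3.67 and 2.17 for day 40 and day 28 and at −2.20 for untreated cells, whereas Ngp stood at 2.42, 2.73 and 2.41.

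Some of the largest values belonged to genes of other kinds. Syt10, a synaptotagmin, read 3.90 in WT and −1.94 in Ccr2KO cells (−5.84 ± 0.21), and it was also low in untreated Ccr2KO cells (−1.51) but not at day 28 (3.92). Rufy4 read 1.41 and −2.68, with the other 4 arrays between 0.39 and 1.29. Cspg5 stood at −0.44 in Ccr2KO cells at day 40 and between −3.89 and −3.35 on the other 5 arrays. Hpx, hemopexin, stood at 0.84 there and between −2.53 and −2.01 elsewhere. Tox4 read 2.73 and 0.49 on its brightest probe (−2.23) but differed by −0.17 on its second, and Bard1 by −1.81 and −0.27. Of the 514 higher genes 120 were well above background on just 1 of the 6 arrays, and of the 212 lower genes 48, against 354 of all 16159. Such genes include Cacna1b (at least 75.8-fold higher), Foxe3 (at least 21.8-fold higher) and Il9 (at least 23.1-fold lower), each with 1 probe. Among genes with several probes a second probe had the same sign in 42 of 50 higher and 22 of 27 lower genes, and was also past 2-fold in 16 and 9. The share over all genes with several probes is not given here, so these counts have no background to be read against.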

How the data were processed

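The values rest on the deposited scanner intensity of 2 arrays, with 4 others for comparison. Per the file headers, the authors extracted Cy3 intensity from one-colour Agilent arrays (design 028005) with Feature Extraction 11.0.1.1, which subtracts background and removes spatial trends. The authors' deposited table held the log2 of the same processed intensity for 30574 probes (largest difference 5e-09), and the submitters' processing notes name R 2.15.1; no source used here says how its probes were chosen.

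Of 59305 spots per array that were not controls, outliers (163 in WT, 195 in Ccr2KO cells at day 40) were left out and none was saturated. Repeat spots were averaged, giving 55681 probes, of which 58.1% in WT and 60.5% in Ccr2KO cells were well above background, and log2 values were lowered by the array's 75th percentile (intensities of 878 and 793). RefSeq names of GRCm38.p6 gave 27509 probes a symbol, and no gene was read from the 13813 unnamed probes above background. The brightest of a gene's probes was used. A side not well above background was raised to the lowest signal among probes that were, so that "at least" marks a nominal bound. The number of arrays limits the precision. Because each group had 1 array, no test was run, and the analysis used Python 3.11.15 and, for normexp and quantile normalization, limma 3.58.1 in R 4.3.3. The planned normexp correction used median spot signals, since mean signals were not among the columns used here. Alternatives also covered the filter, the choice of probe and the scaling. The calculation was tested on simulated data.

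Genes were named by rule, namely the 20 largest differences each way measured on both arrays, the 8 largest bounds, up to 4 members past 2-fold of each of 61 lists, genes chosen for their known roles, neighbours of Ccr2, and up to 10 each way past 2-fold in all 3 pairs. Clone names and olfactory receptors were left out, and a few further genes are not reported here. Some further members past 2-fold were named outside these rules, such as Cma1, Cpa3, Epx, Fcer1a, Col17a1 and Stfa2l1. So were Ctsg and Klra2 among the genes past 2-fold in all 3 pairs. The counts of named genes below leave such additions out. Members that did not pass 2-fold were picked as contrasts after their values were seen. The genes and lists were chosen with earlier results of these data known.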

Additional observations from a re-analysis of the deposited data

Results flagged for a closer look

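Named genes whose day 40 difference was past 2-fold were set against the untreated and day 28 pairs, and 13 were past 2-fold in the opposite direction in one of them. Whether the differences themselves differ was not tested, since each pair has 1 array per genotype.

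Of the 13, 8 pointed the other way in untreated cells. Marco differed by −3.35 there and by 2.48 at day 40, and Chil3 by −2.04 and 2.40. Atp6v0d2 differed by −2.16 and 1.75. The mast cell genes Mcpt2, Mcpt4 and Mcpt-ps1 differed by −2.20 (a bound), −1.03 and −1.13 (a bound) in untreated cells and by 3.67, 2.35 and 2.53 at day 40. Complement factor D, Cfd, differed by −1.70 and 2.44, and the complement gene C7 by 1.07 and −1.70. At day 28 the opposite direction was read for 5 genes. Tbx10 differed by 1.71 at day 28 and −1.64 at day 40, Pramel34 by 1.22 and −1.68, Bard1 by 1.17 and −1.81, Eml5 by 1.95 and −3.17 (both bounds), and Nebl by −1.08 (a bound) and 2.69.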

How the results depend on the processing

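Of 124 named genes past 2-fold, none changed sign under those of the 9 alternatives that held them, which were 92 genes for the authors' deposited table, 104 for both arrays above background, 115 for at least 2 of 6 arrays and all 124 for the rest. Fewest stayed past 2-fold with normexp correction, 100 of 124, then 120 with quantile normalization. Of the 92 named genes that the authors' deposited table holds, 90 were past 2-fold. The counts of higher and lower genes were 193 and 79 with normexp, 218 and 114 in the deposited table and 281 and 118 with both arrays above background, against 514 and 212. With normexp the Ccr2 difference was −1.23 against −1.94, and the share of counted genes with 1 sign in all 3 pairs 58.6% against 47.6%. Over all genes that share was 34.7% with normexp and 33.3% without it. Prrt2, counted as lower by at least 8.55-fold, differed by −0.02 on its second probe. Of the 4 lists with a median past 2-fold, the basal cell and erythroid lists stayed past it under all 9, B cell genes reached −0.97 with normexp and mast cell genes 0.59 in the deposited table. The cause of these shifts was not tested, and the deposited table held fewer of the genes. No paired analysis was possible because the day 40 pair has 1 array per genotype and the labels give no replicate numbers. A fit of genotype over the 3 days with day as a block was not run, since it answers another question than day 40 alone. Genes not well above background on 1 array have only a bound.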

Other observations

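Further genes also stood apart at day 40. Nr1h4, the bile acid receptor FXR, read −3.01 in WT and −0.67 in Ccr2KO cells (2.34 ± 0.25). Cyp1a1, a target of the aryl hydrocarbon receptor, differed by −2.08 ± 0.23, and Cyp1b1, another target, 2.14 and 3.27 (1.14 ± 0.20). Among clock genes Ciart (−1.23) and Bhlhe41 (1.05) were past 2-fold in opposite directions, with both under 2-fold after normexp correction. Cardiac muscle genes, which mice express in pulmonary veins, had a median of −0.22, with Actc1 (−1.21) and Myh6 (−1.08, and −0.40 after normexp correction) lower.

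Of 13813 probes above background without a gene symbol 781 were higher and 452 lower by at least 2-fold. Within the interleukin list Il25, counted as higher, was well above background on the Ccr2KO day 40 array alone, with a value of 0.85 after normexp correction. Btla, an inhibitory receptor of B and T cells, differed by −1.86 ± 0.23, and by just under 2-fold after normexp correction.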
